A study of Saccharomyces cerevisiae with 4 samples.

Results

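The genes described here are 8 of yeast nucleotide synthesis: IMD2 and its relatives IMD3 and IMD4, GUA1 and ADE12 on the purine side, and URA2, URA7 and URA8 on the pyrimidine side. They were taken by name as genes whose output is set by the choice of start site or by early termination (IMD2, URA2, URA8, ADE12), with the paralogs IMD3, IMD4 and URA7 and with GUA1. A gene was represented by a probe set that the platform annotation gives to that gene alone, and by the brightest on average where there were several. All 8 were found, among 5656 genes so represented on the array.

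Total RNA was measured on 4 Affymetrix yeast expression arrays, with 1 array for each of 4 groups: nab3-11 cells at 37 °C, wild type cells at 37 °C, nab3-11 cells at 25 °C and wild type cells at 25 °C. The mutant strain (1099) carries nab3-11, a temperature-sensitive allele of NAB3 that loses function at 37 °C, and the control (1415) is a wild type strain. The labels do not say that the strains are otherwise the same. All cultures grew in rich medium (YPD) and were held for 2 hours at the stated temperature. Values are probe set signals on a linear scale, brought to a common trimmed mean of 150 on every array. Signals under a floor of 21.8 were set to the floor ahead of the log2 step. Differences of at least 2-fold (1 on the log2 scale) are called, as higher or lower. Comparisons that use the same array share whatever sets that array apart. With 1 array a group there is no test, error or p-value for any difference below, and the number of arrays limits the precision. Probe set brightness also depends on the probes, so it was used only to choose a probe set per gene and to set a brightness limit, and no gene's RNA level is ranked against another's.

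The titles of the wild type arrays conflict with their descriptions, which name nab3-11 at 25 °C; the titles and strain entries were followed. Stress genes bear on the temperature labels. HSP12, a membrane-protecting heat shock protein gene, had a signal of 2859 in nab3-11 and 2747 in wild type at 37 °C, against 98.2 in nab3-11 and 43.4 in wild type at 25 °C. SSA4 (an inducible Hsp70) was higher at 37 °C than at 25 °C, by 12.5-fold in nab3-11 and 6.78-fold in wild type. HSP26 (a small heat shock protein) was at least 25.7-fold higher in nab3-11 and at least 14.1-fold higher in wild type, its 25 °C signals being below the floor. For URA3, a common selectable marker, a control probe set gave signals of 74.4 and 76.0 in nab3-11 at 37 °C and 25 °C and of 165 and 168 in wild type at 37 °C and 25 °C. The gene's own URA3 probe set gave 48.2 and 81.4 in nab3-11 and 97.7 and 96.4 in wild type, so at 25 °C it differed by only 1.18-fold. On an array, 56.5% to 64.4% of the probe sets other than controls exceeded the floor.

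GTP is made from IMP by IMP dehydrogenase and GMP synthase, AMP from IMP by adenylosuccinate synthetase and lyase, and CTP from UTP by CTP synthase. In budding yeast, RNA polymerase II can start transcription of IMD2, URA2, URA8 and ADE12 at sites upstream of those that give the mRNA. When the nucleotide pools are full, the upstream sites are favoured and the short transcripts that result are ended early and degraded. For IMD2 this early termination is carried out by Nrd1, Nab3 and the helicase Sen1, the complex that also ends snoRNA transcription. The sources used here do not say where in each gene the probes lie, so short attenuated transcripts and full-length mRNA cannot be told apart in these signals.

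At 37 °C, where the allele is inactive, 2 of the 8 genes were at least 2-fold higher in nab3-11 than in wild type, URA8 and IMD2, and 0 were lower. Over all 4770 measured genes 8.72% passed this threshold in either direction, and 4.78% of the 4770 were higher. All 8 genes are bright, and among the 850 genes at least as bright on average as the dimmest of them (ADE12) 4.71% passed in either direction, and 2.47% of the 850 were higher. That brightness limit was set after the values were seen. The IMD2 call lies at the threshold and is lost with scaling to a common median, where the difference was 1.999-fold and URA8 alone was called. The median log2 difference of the 8 was 0.01, beside -0.05 over all measured genes. At 25 °C only URA8 among the 8 passed, where 1.7% of 4282 measured genes did, 1.17% as higher. Among the 850 bright genes these shares were 1.18% and 0.706%.

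**Figure D1:**
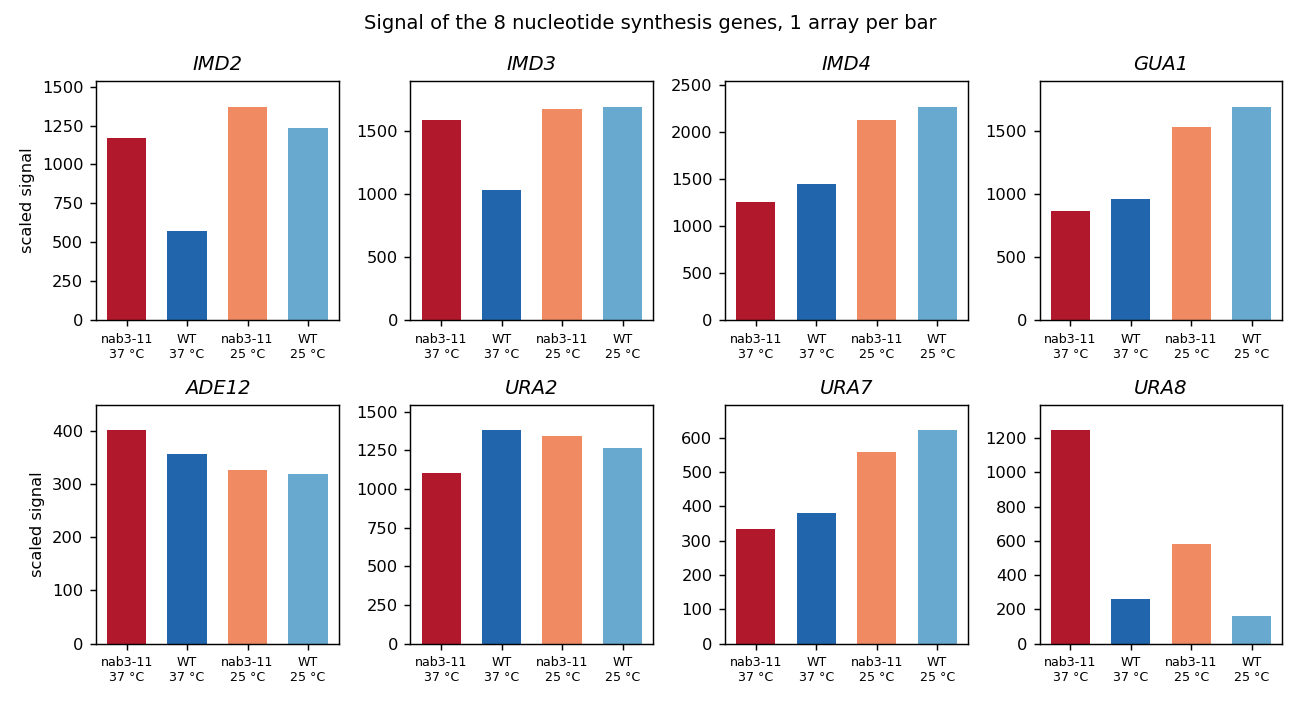
Scaled signal (linear, from 0) of each of the 8 genes on the 4 arrays, 1 array per bar, each panel with its own axis. URA8 was highest on both nab3-11 arrays, with signals of 1245 and 582, while IMD2 was lowest on the wild type 37 °C array, with a signal of 571.

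URA8 encodes a CTP synthase, which aminates UTP to CTP. Its signal was 1245 in nab3-11 and 262 in wild type at 37 °C, and 582 in nab3-11 and 160 in wild type at 25 °C. Both mutant arrays were thus above both wild type arrays, and within each strain the 37 °C array was the higher. URA8 was 4.76-fold higher in nab3-11 than in wild type at 37 °C, where it ranked 35th from the highest of 4770 genes, and 3.63-fold higher at 25 °C, where it ranked 3rd of 4282. From 25 °C to 37 °C the signal was 2.14-fold higher in nab3-11 and 1.63-fold higher in wild type. In the nab3-11 shift, where URA8 was the 1 called gene of the 8, 19.8% of all measured genes and 16.7% of the bright ones passed 2-fold, as higher 15.7% and 8.35%. The highest of its 4 signals was 7.76-fold the lowest, a span wider than that of 98.8% of the 3825 genes above the floor on every array.

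The strain difference of URA8 at 37 °C exceeded that at 25 °C by 0.39 on the log2 scale, short of 2-fold. In this strain-by-temperature difference URA8 ranked 1027th from the highest of 4811 genes, and 0 of the 8 genes passed 2-fold, where 9.91% of all genes and 4.82% of the bright ones did. The log2 strain difference of URA8 was 2.25 at 37 °C and 1.86 at 25 °C, the permissive temperature. The 25 °C wild type array in place of the 37 °C one put the mutant at 37 °C 7.76-fold higher, with temperature differing as well as strain.

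URA7 encodes the other CTP synthase and served as the paralog of URA8. It had a signal of 333 in nab3-11 and 381 in wild type at 37 °C, and 558 in nab3-11 and 621 in wild type at 25 °C. Here the arrays split by temperature, not by strain. URA7 was lower in nab3-11 than in wild type by 1.14-fold at 37 °C and by 1.11-fold at 25 °C. The log2 strain difference of URA8 exceeded that of URA7 by 2.45 at 37 °C and by 2.01 at 25 °C, and the temperature differences of the paralogs had opposite signs in both strains.

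URA2 encodes the bifunctional enzyme of the first steps of pyrimidine synthesis, carbamoyl phosphate synthetase and aspartate transcarbamylase. Its signal was 1105 in nab3-11 and 1380 in wild type at 37 °C, and 1346 in nab3-11 and 1267 in wild type at 25 °C. The mutant at 37 °C was the lowest array, 1.25-fold below wild type at 37 °C. The whole span of URA2 on the trimmed-mean scale was 1.25-fold, narrower than in all but 8.1% of the 3825 genes, whose median span was 1.70-fold. With a common median URA2 was lower at 37 °C than at 25 °C, by 1.746-fold in nab3-11 and 1.304-fold in wild type. Its strain-by-temperature difference was -0.41, the lowest of the 8.

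IMD2 encodes the inducible IMP dehydrogenase, the enzyme that commits IMP to guanine nucleotides. Its signal was 1173 in nab3-11 and 571 in wild type at 37 °C, and 1372 in nab3-11 and 1232 in wild type at 25 °C. The wild type 37 °C array was the low one, and the other 3 lay within a narrow range above it. At 37 °C IMD2 was 2.05-fold higher in nab3-11 than in wild type, the 215th highest of 4770 genes, and 1.11-fold higher at 25 °C. Compared with 25 °C, the 37 °C signal was 1.17-fold lower in nab3-11 and 2.16-fold lower in wild type, the 54th lowest of 4650 genes. IMD2 was the 1 called gene of the 8 in the wild type shift, where 12.5% of measured genes and 8.94% of the bright ones passed 2-fold, as lower 1.44% and 3.65%. With quantile normalization its log2 difference in this shift was -0.95, short of the threshold. Its strain-by-temperature difference was 0.88, with 94.0% of all genes below it. The 2.05-fold difference rests on the wild type 37 °C array, whose labels conflict, as do those of the wild type 25 °C array. Against wild type at 25 °C the mutant at 37 °C was 1.05-fold lower. That comparison differs in temperature as well as strain, so it does not check the strain difference.

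The array holds 3 probe sets annotated to IMD2, all of a type that can bind related genes of a family. Signal from IMD2 RNA and from RNA of such related genes therefore cannot be told apart on these probe sets. The brightest gave the values above. The second gave signals of 959 in nab3-11 and 496 in wild type at 37 °C, and 1144 in nab3-11 and 1074 in wild type at 25 °C, a 1.93-fold strain difference at 37 °C. The dimmest gave 377 in nab3-11 and 130 in wild type at 37 °C, and 330 in nab3-11 and 238 in wild type at 25 °C. This probe set thus showed the widest strain difference, 2.90-fold at 37 °C and 1.39-fold at 25 °C, and its nab3-11 signal was 1.14-fold higher at 37 °C than at 25 °C. All 3 had their lowest signal in wild type at 37 °C. Over 207 genes with several measured probe sets, the log2 strain differences at 37 °C of a gene's probe sets differed by 0.40 at the median and by 0.99 at the 90th percentile.

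**Figure D2:**
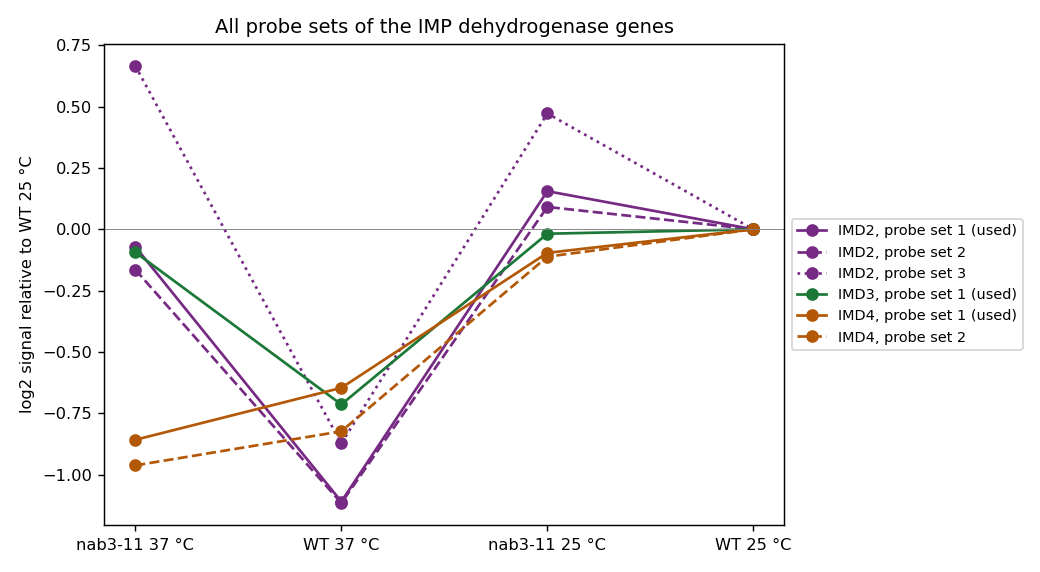
Every probe set of IMD2, IMD3 and IMD4 on the 4 arrays, as the log2 signal relative to wild type at 25 °C (1 array per point, lines join the points of a probe set, probe sets numbered from the brightest). The IMD2 and IMD3 probe sets were lowest in wild type at 37 °C, whereas both IMD4 probe sets were lowest in nab3-11 at 37 °C.

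IMD3 and IMD4 encode further IMP dehydrogenases, whose genes are not known to share the start site control of IMD2. IMD3 had a signal of 1586 in nab3-11 and 1032 in wild type at 37 °C, and 1671 in nab3-11 and 1692 in wild type at 25 °C. Its pattern resembled that of IMD2, with wild type at 37 °C low, and its strain difference at 37 °C was 1.54-fold. The IMD3 probe set is also of the type that can bind related genes, so signal from IMD2 RNA and from IMD3 RNA cannot be told apart on it. IMD4, measured by 2 probe sets without such a type, had a signal of 1253 in nab3-11 and 1451 in wild type at 37 °C, and 2124 in nab3-11 and 2270 in wild type at 25 °C. Both strains were lower at 37 °C, by 1.69-fold in nab3-11 and 1.56-fold in wild type, and the mutant was 1.16-fold lower than wild type at 37 °C. The second IMD4 probe set had log2 differences of -0.85, -0.82 and -0.14 for these. The log2 strain difference of IMD2 at 37 °C thus exceeded that of IMD4 by 1.25 and that of IMD3 by 0.42.

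GUA1 encodes GMP synthase, the step after IMP dehydrogenase. Its signal was 867 in nab3-11 and 959 in wild type at 37 °C, and 1534 in nab3-11 and 1696 in wild type at 25 °C. The 37 °C signal was 1.77-fold lower than the 25 °C signal in each strain, and 1.11-fold lower in nab3-11 than in wild type at each temperature. GUA1 followed IMD4 and URA7 closely. Between log2 profiles centred on their own mean over the 4 arrays, the Euclidean distance was 0.13 for GUA1 and IMD4, 0.10 for GUA1 and URA7 and 0.05 for IMD4 and URA7. Of the 3825 genes above the floor on all arrays, 22 lay within 0.13 of IMD4, 14 within 0.13 of GUA1 and 20 within 0.13 of URA7.

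ADE12 encodes adenylosuccinate synthetase, which leads from IMP towards AMP. Its signal was 400 in nab3-11 and 356 in wild type at 37 °C, and 326 in nab3-11 and 319 in wild type at 25 °C. On the trimmed-mean scale the 4 arrays lay within 1.26-fold of each other, a span narrower than in all but 8.9% of genes. With a common median ADE12 was instead lower at 37 °C than at 25 °C, by 1.167-fold in nab3-11 and 1.273-fold in wild type. ADE12 was higher in nab3-11 than in wild type by 1.13-fold at 37 °C and by 1.02-fold at 25 °C. Of the 4 genes named for start site or early termination control, 2 (IMD2 and URA8) were higher at least 2-fold at 37 °C. Over all 4770 measured genes 4.78% were so, and among the 850 bright genes 2.47%. The IMD2 call lies at the threshold (1.999-fold with a common median) and rests only on probe sets that can bind related genes. ADE12 and URA2 lay within 1.25-fold of wild type.

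**Figure D3:**
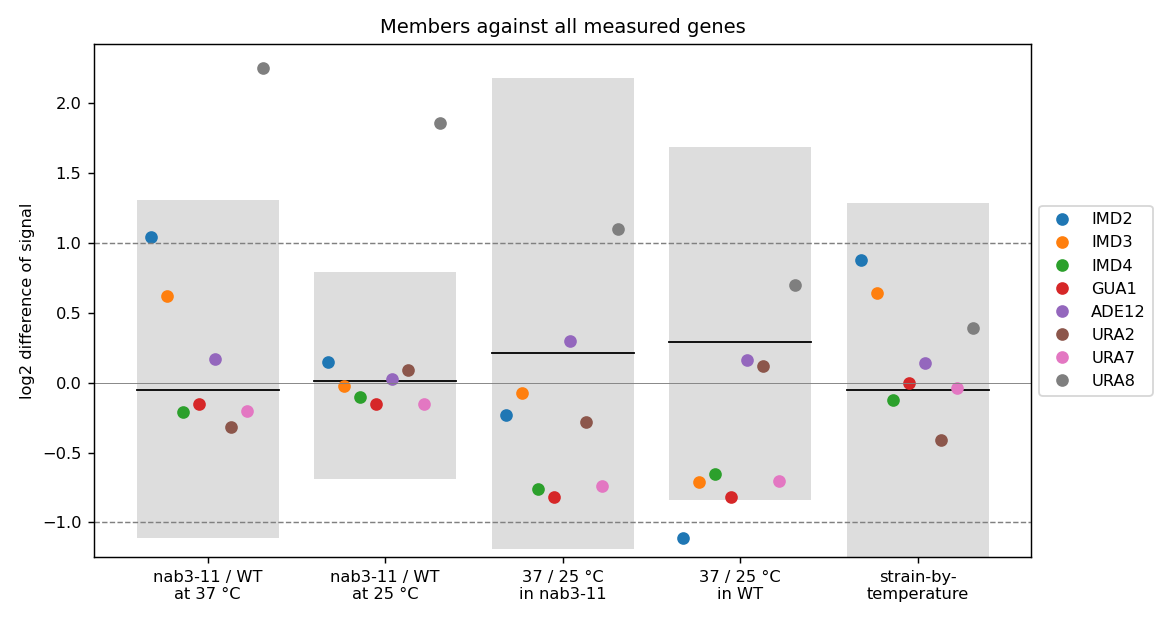
Log2 differences of the 8 genes (points) in the 5 comparisons, over the range that holds the central 95% of all measured genes (grey, with a line at their median); dashed lines mark 2-fold. URA8 lay above the grey range in both strain comparisons, at 2.25 and 1.86, and IMD2 below it in the wild type shift, at -1.11.

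The order of the 4 arrays, given here on the trimmed-mean scale, differed between the genes. IMD4, GUA1 and URA7 shared a single order, with wild type at 25 °C highest and nab3-11 at 37 °C lowest. ADE12 and URA8 were highest in nab3-11 at 37 °C and lowest in wild type at 25 °C. Many neighbouring levels in these orders are close: of the 3 steps between adjacent arrays, none exceeded 1.15-fold for URA2 or 1.13-fold for ADE12. For URA8 the steps were 2.14-fold, 2.22-fold and 1.63-fold, and for IMD2 1.11-fold, 1.05-fold and 2.05-fold.

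Scaling bears on the temperature differences. The median log2 difference of all genes between 37 °C and 25 °C was 0.21 in nab3-11 and 0.29 in wild type with the trimmed-mean scale, and -0.26 and -0.19 with a common median. Relative to the higher medians, IMD4, GUA1 and URA7 stood among the lower genes, at the 8.2, 6.8 and 8.6 percentiles in nab3-11 and the 5.5, 2.7 and 4.3 percentiles in wild type. Bright genes were lower at 37 °C as a class, with medians of -0.19 in nab3-11 and -0.24 in wild type over the 850. Among the 850, IMD4, GUA1 and URA7 ranked 148th, 121st and 153rd from the lowest in nab3-11. In wild type they ranked 152nd, 59th and 112th. With a common median these 3 were lower at least 2-fold in both strains, IMD2 and IMD3 were so in wild type, and URA8 was no longer at least 2-fold higher in nab3-11. That scale moved the median of all genes down, and the share of all genes past 2-fold was not computed on it. The larger number of lower genes is therefore not a result about the 8. The median of the 8 genes was -0.26 in nab3-11 and -0.67 in wild type on the main scale, beside the bright-gene medians of -0.19 and -0.24.

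Of the other genes of nucleotide metabolism, ADE13 and URA3 passed 2-fold between the strains at 37 °C, both as lower. Of 57 genes in 7 lists, covering purine and pyrimidine synthesis, salvage and uptake, phosphoribosyl pyrophosphate, deoxynucleotides and regulators, 53 were measured at 37 °C. Of these, 0 were higher and 2 lower in nab3-11, with a median log2 difference of -0.14, beside 228 higher and 188 lower of all 4770 measured genes and their median of -0.05. The 2 were ADE13, the adenylosuccinate lyase gene that acts after ADE12, and URA3, the orotidine phosphate decarboxylase gene. ADE13 had a signal of 62.0 in nab3-11 and 128 in wild type at 37 °C, and 304 in nab3-11 and 240 in wild type at 25 °C, and so was 2.07-fold lower in nab3-11 at 37 °C. ADE13 was lower at 37 °C than at 25 °C in both strains, by 4.90-fold in nab3-11 and 1.86-fold in wild type. URA3, by its own probe set, was 2.03-fold lower in nab3-11 at 37 °C. Its control probe set was lower in nab3-11 at both temperatures, with 74.4 beside 165 in wild type at 37 °C and 76.0 beside 168 at 25 °C. Whether the strains differ at this marker was not tested. At 25 °C 0 of 49 measured genes passed in either direction, with a median of 0.04; with 73 of all 4282 genes passing, a count of 0 says nothing particular about them.

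By list at 37 °C, 1 of 9 measured purine synthesis genes and 1 of 7 pyrimidine synthesis genes were lower in nab3-11. In the lists of purine interconversion and salvage (13 measured), pyrimidine salvage and uptake (8), phosphoribosyl pyrophosphate synthesis (5), deoxynucleotide synthesis (9) and regulators (2), 0 passed. With 8.72% of all measured genes passing, counts of 0 or 1 in lists this small say nothing particular about them. In the strain-by-temperature difference 0 of 53 were higher and 2 lower, ADE13 at -1.40 and URA1 at -1.09, beside 215 higher and 262 lower of all 4811 genes. URA1, the dihydroorotate dehydrogenase gene, had a signal of 354 in nab3-11 and 667 in wild type at 37 °C, and 435 in nab3-11 and 385 in wild type at 25 °C. PPR1, the activator of the URA1, URA3 and URA4 genes, differed by 0.23 at 37 °C.

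Of other genes with reported early-termination control, NRD1 and GSC2 differed between the strains at 25 °C as URA8 did. NRD1, the partner of Nab3, had a signal of 716 in nab3-11 and 88.8 in wild type at 37 °C, and 291 in nab3-11 and 125 in wild type at 25 °C. Its strain difference was 8.06-fold at 37 °C and 2.32-fold at 25 °C. Its strain-by-temperature difference was 1.80, against 0.39 for URA8 and 0.88 for IMD2. GSC2, an alternate glucan synthase subunit gene also called FKS2, was 4.04-fold higher in nab3-11 at 25 °C and 1.27-fold higher at 37 °C. Its signal was 898 in nab3-11 and 707 in wild type at 37 °C, and 372 in nab3-11 and 92.0 in wild type at 25 °C. Its strain-by-temperature difference was -1.67, opposite in sign to those of URA8 and NRD1. HRP1, a cleavage factor gene, was 1.41-fold higher at 37 °C and 1.03-fold lower at 25 °C.

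**Figure D4:**
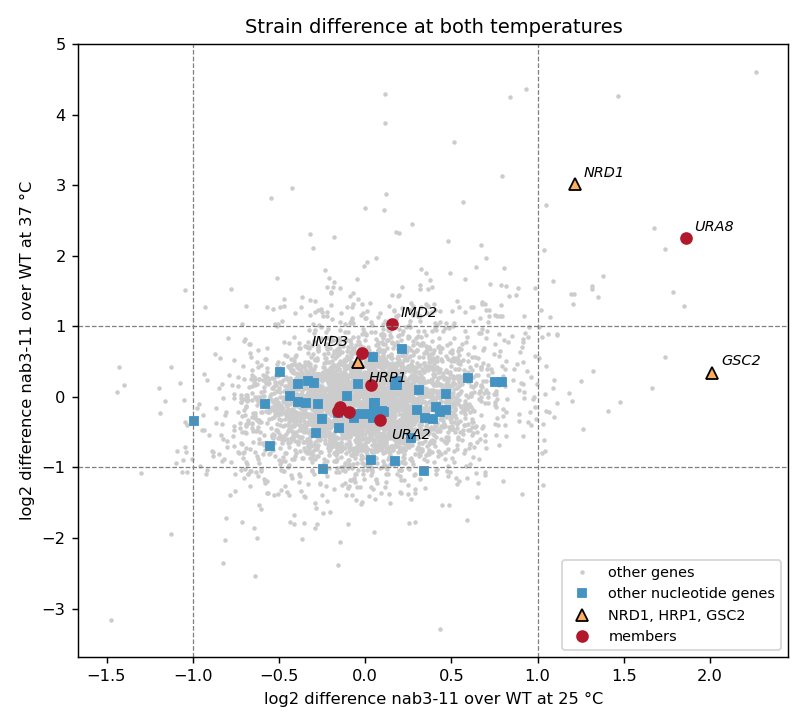
Log2 difference of nab3-11 over wild type at 25 °C (horizontal) and 37 °C (vertical) for genes measured at both, with the 8 genes in red, the other nucleotide genes in blue and NRD1, HRP1 and GSC2 as triangles; dashed lines mark 2-fold. URA8 and NRD1 lay past 2-fold on both axes, and IMD2 only on the vertical one.

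Genes with the most similar profiles were named by the distance used above, over 4 arrays and 3825 genes. Nearest to IMD2 were the copper transporter gene CCC2 at 0.23, the tRNA gene YNCJ0006W at 0.27, the RNA helicase gene DHH1 at 0.28, the agglutinin subunit gene AGA1 at 0.30 and YLR152C at 0.31, while IMD3 came 12th at 0.42. CCC2 had signals of 143 in nab3-11 and 83.4 in wild type at 37 °C, and 164 in nab3-11 and 155 in wild type at 25 °C. Nearest to URA8 were 2 tRNA genes, YNCL0044W at 0.52 and YNCP0004C at 0.62, the reading frame YLL066W-B at 0.61, the lysine methyltransferase gene RKM5 at 0.66 and the snoRNA gene SNR33 at 0.70. RKM5 had signals of 357 in nab3-11 and 83.3 in wild type at 37 °C, and 108 in nab3-11 and 32.3 in wild type at 25 °C. The probe sets of YNCL0044W and YNCP0004C are of the type that can bind related genes. That of YNCJ0006W is of a type that can bind further sequences. In wild type at 25 °C, YNCL0044W had a signal of 21.97 and YNCP0004C of 26.27, both near the floor. In wild type at 37 °C, YNCJ0006W had a signal of 23.48, also near the floor. With 4 arrays many genes share a profile, and these distances describe the arrays only.

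The genes beside URA8, URA2 and ADE12 in the R64 annotation were all within 2-fold between the strains at 37 °C. Only 8.72% of all 4770 measured genes passed 2-fold there, so this says nothing particular about the neighbours. VPS25, a neighbour of URA8, had a log2 strain difference of 0.10 at 37 °C and 0.06 at 25 °C, and SOD1, on its other side, had -0.39 and -0.29. Beside URA2, AIM23 had -0.58 and the potassium transporter gene TRK1 -0.87 at 37 °C, where URA2 had -0.32. The AIM23 signals at 37 °C were near the floor, at 24.7 in nab3-11 and 36.8 in wild type. Beside ADE12, POP1 had 0.11 and ALG9 0.42, where ADE12 had 0.17. The annotated neighbours of IMD2, PHO12 and YHR218W, were not analysed here, as neither has a probe set of its own in the platform annotation.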

How the data were processed

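The authors deposited 1 intensity per probe set and array, linear in brightness; the submitters' processing notes name GCOS 1.1.1 and MAS5. From the values, the authors had scaled each array to a trimmed mean between 150.1 and 150.2, which hides changes in total RNA per cell. Per the labels' protocols, hot acid phenol extraction was followed by amplification in 1 round from an oligo(dT) primer, which favours polyadenylated RNA. Genome build and detection calls are not given in the sources used here.

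Arrays were rescaled to a trimmed mean (2% off each end) of 150, and signals were raised to a floor of 21.8, the 40th percentile over non-control probe sets. Of 9335 probe sets, 60 were controls, 6504 had 1 gene and 328 several; the rest had none. All 6504 matched the R64 annotation by gene ID, which gave names and neighbours only. A gene was measured where its highest signal in a comparison passed the floor. Named genes were the 8 members, NRD1, HRP1, GSC2, 3 stress genes, list genes past 2-fold between the strains at 37 °C or in the strain-by-temperature difference, the 5 nearest profiles to IMD2 and URA8, and annotated neighbours; PPR1, ADE17, MTD1, ADE8, GUK1 and RNR3 were added after values were seen. Members and lists were chosen with earlier results of these data known. The alternatives were other scalings, floors, probe set rules, a 3-fold threshold and another control array. Python 3.11.15, numpy 2.4.6, pandas 2.3.3 and matplotlib 3.10.9 were used.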

Additional observations from a re-analysis of the deposited data

Results flagged for a closer look

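The log2 strain difference of IMD3 was 0.62 at 37 °C and -0.02 at 25 °C, so its sign differed between the temperatures, with a strain-by-temperature difference of 0.64. That of URA2 was -0.32 at 37 °C and 0.09 at 25 °C, and its temperature difference was -0.28 in nab3-11 and 0.12 in wild type, which gives a strain-by-temperature difference of -0.41. These changes of sign depend on the scaling. With quantile normalization the strain difference of IMD3 was 0.76 at 37 °C and 0.09 at 25 °C, the same sign at both. With a common median the temperature difference of URA2 was -0.80 in nab3-11 and -0.38 in wild type, the same sign in both. Neither strain-by-temperature difference reached 2-fold, and with 1 array a group neither was tested.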

How the results depend on the processing

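The 5 counts of called genes among the 8 were recomputed under 9 alternatives, and the strain count at 37 °C under 1 more. In 36 of 46 recomputed counts the value stayed within 1.5 times. The share of all genes past the threshold was not computed under the alternatives. The counts that follow thus show how the calls depend on processing, not how the 8 genes differ from others. With scaling to a common median the count was 1 (URA8) for the strain difference at 37 °C, 3 for the shift in nab3-11 and 5 for the shift in wild type. IMD2 was then 1.999-fold higher at 37 °C, just under the threshold. Quantile normalization gave 0 in the wild type shift. Without probe sets of family types, IMD2 and IMD3 have no value, the strain count at 37 °C was 1 and the wild type shift had 0. A 3-fold threshold left 1 in the strain difference at 37 °C and 0 in each shift. With the wild type 25 °C array in place of the wild type 37 °C array, so that temperature differed as well as strain, the count was 1 (URA8). The difference of IMD2 was then reversed, at -0.07, and 5 other genes moved by over 1.5-fold. Of 318 recomputed differences of single genes, 312 stayed within 1.5-fold, but many could hardly move. All 8 genes were above the floor on every array, so other floor percentiles left their values unchanged. The deposited trimmed means already lay between 150.1 and 150.2, and probe set rules cannot move a gene with a single plain probe set. In the nab3-11 shift, GUA1 went from -0.82 to -1.34 with a common median and still counted as unmoved. Neither the 312 of 318 nor the 36 of 46 thus measures robustness. With the control array left as it was, URA8 ranged between 2.16 and 2.46 at 37 °C and between 1.60 and 1.86 at 25 °C, and IMD2 reached 1.16 at 37 °C at most. The cause of these shifts was not tested. No paired analysis was possible because there is 1 array a group and the labels carry no replicate numbers.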

Other observations

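At 25 °C, where the allele is permissive, genes of the purine synthesis list stood slightly higher in nab3-11 than in wild type, a pattern picked out after the values were seen. The list leaves out the purine genes among the 8, which did not share it. Their log2 differences were 0.15 for IMD2, -0.02 for IMD3, -0.10 for IMD4, -0.15 for GUA1 and 0.03 for ADE12. The median log2 difference of the list was 0.31, beside 0.01 over all measured genes. Of its 9 measured genes 8 were above 0, as were 2202 of all 4282, with 0 of the 9 past 2-fold. ADE17, which acts in the last steps to IMP, had a signal of 61.1 in nab3-11 and 35.3 in wild type, and MTD1, a gene of folate metabolism, had 89.9 in nab3-11 and 53.4 in wild type. These had the largest differences of the 9, and ADE8, an early gene of the pathway, was the 1 below 0, with 175.5 in nab3-11 and 237 in wild type. GUK1, the guanylate kinase gene of the purine interconversion list, had 833 in nab3-11 and 1658 in wild type at 25 °C, a log2 difference of -0.99, and -0.34 at 37 °C. RNR3, the damage-inducible ribonucleotide reductase subunit gene, was at least 4.78-fold higher at 37 °C than at 25 °C in nab3-11 and at least 2.84-fold higher in wild type, on a probe set of a type that can bind further sequences.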
